A study of Homo sapiens with 5 samples.

Results

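The 10 noncoding host genes of small nucleolar RNAs (snoRNAs) SNHG1, SNHG5, SNHG6, SNHG7, SNHG8, SNHG12, SNHG15, SNHG16, GAS5 and ZFAS1 were followed in NK92MI cells exposed to UNC1999. They were taken by symbol from a table of 57221 gene rows, each was found on a single row, and all 10 passed the filter on low counts. NK92MI is a human natural killer cell line that carries an IL2 transgene and therefore grows without added interleukin-2, and UNC1999 is an inhibitor of the histone methyltransferases EZH2 and EZH1. One group received DMSO, the solvent (n = 2), and the other received 10 µM UNC1999 (n = 3), both for 48 h. All libraries come from this 1 line, and the labels do not say whether replicates were separate cultures. The p-values therefore reflect no more than the spread among these 5 libraries, and that spread may be technical.

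A snoRNA host gene is transcribed and spliced like a messenger RNA gene, and its introns release snoRNAs. These small RNAs guide chemical modification of ribosomal RNA: box C/D snoRNAs guide 2'-O-methylation and box H/ACA snoRNAs guide pseudouridylation. What is left, the spliced exons, codes for no known conserved protein. Many such spliced RNAs are engaged by ribosomes at a short reading frame and are degraded by nonsense-mediated decay, a pathway that removes RNAs in which an exon junction lies well after a stop codon. Many host genes also begin at a C followed by a run of pyrimidines, the start motif of ribosomal protein genes, whose mRNAs are translated under the control of the growth kinase mTOR. A host RNA's level in total RNA therefore reflects its transcription, splicing and decay together, and in bulk samples fewer cells of a kind and less RNA per cell cannot be told apart.

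The reading frames are shown because the 10 genes are often described through their decay. They are the first ATG-initiated frame of 1 spliced transcript per gene in GENCODE 29, with the start and stop codons in capitals, 5′ to 3′. The first 2 are genes that did not pass the test below and the last 3 are genes that fell.
SNHG1: ATGccttctgtgttgTAG
SNHG12: ATGgtctcgatctccTGA
SNHG5: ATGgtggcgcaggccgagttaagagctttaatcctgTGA
SNHG16: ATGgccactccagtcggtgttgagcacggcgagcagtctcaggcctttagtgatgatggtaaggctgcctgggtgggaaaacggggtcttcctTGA
SNHG8: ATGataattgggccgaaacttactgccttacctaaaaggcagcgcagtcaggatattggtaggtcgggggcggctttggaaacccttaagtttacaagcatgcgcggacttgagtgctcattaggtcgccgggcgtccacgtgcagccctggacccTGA
The SNHG1 and SNHG12 frames each hold 5 codons before the stop, and 9 and 5 exon junctions lie more than 50 nt after it. SNHG5 has 12 codons and 4 junctions, SNHG16 has 31 codons and 2 junctions, and SNHG8 has 52 codons and 2 junctions. Across the 10 genes, 78 of 88 spliced transcripts without a retained intron (88.6%) had at least 1 such junction, against 70.5% of 24299 transcripts from 11891 other noncoding genes with more than 1 exon. Both the genes that fell and the genes that did not therefore carry this layout: 10 of 10 transcripts of GAS5 and 11 of 12 of SNHG1 had it, and so did 18 of 19 of SNHG5 and 5 of 7 of SNHG16.

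Transcription starts are shown for the same reason, since the pyrimidine run is the other feature shared by many host genes. The RefSeq table (GRCh38.p14) held 8 of the genes that were searched. Each window runs from 50 bases before the start to 30 after it, 5′ to 3′ on the gene's strand. Capitals mark the sequence TATAA between 40 and 20 bases before the start and a C followed by at least 4 pyrimidines that begins within 10 bases of the start. Of the windows below, those of SNHG5, SNHG16 and SNHG8 belong to genes that fell, and those of SNHG12, ZFAS1 and GAS5 to genes that did not pass the test.
SNHG5: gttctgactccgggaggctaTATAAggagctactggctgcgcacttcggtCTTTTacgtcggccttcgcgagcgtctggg
SNHG16: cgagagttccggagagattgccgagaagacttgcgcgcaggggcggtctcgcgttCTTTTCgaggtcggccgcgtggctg
SNHG8: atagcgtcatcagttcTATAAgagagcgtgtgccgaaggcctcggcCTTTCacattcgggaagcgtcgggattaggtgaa
SNHG12: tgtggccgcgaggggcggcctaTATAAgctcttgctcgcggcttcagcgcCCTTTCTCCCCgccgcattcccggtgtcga
ZFAS1: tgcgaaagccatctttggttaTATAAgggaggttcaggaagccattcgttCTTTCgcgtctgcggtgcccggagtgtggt
GAS5: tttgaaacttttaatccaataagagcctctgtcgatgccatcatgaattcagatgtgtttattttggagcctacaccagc
The pyrimidine run was found in 6 of the 8 genes (SNHG5, SNHG7, SNHG8, SNHG12, SNHG16 and ZFAS1) and in 33.3% of 27305 promoters in the table. TATAA was found in 5 of the 8 (SNHG5, SNHG7, SNHG8, SNHG12 and ZFAS1) and in 4.22% of all promoters. Both motifs were read on the gene's strand only. The E-box CACGTG, which reads the same on both strands, was searched from 250 bases before to 50 after the start and occurred in SNHG7 alone of the 8, against 7.43% of all promoters. For GAS5, RefSeq places the start upstream of the one in GENCODE, so its window may not cover the start used in these cells. For SNHG12, ZFAS1 and SNHG8 the outermost GENCODE start lies upstream of the printed window, so the same holds for them. The motifs stood in genes that fell and in genes that did not.

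Of the 10 host genes, 4 fell with UNC1999: SNHG6, SNHG16, SNHG5 and SNHG8. None rose, and 6 did not pass the test. The test was edgeR's quasi-likelihood F-test on all 13075 genes that passed the filter, with Benjamini-Hochberg adjustment and a threshold of 0.05. By that rule 19.5% of all tested genes fell, 15.7% rose and 35.2% changed in either direction. The median log2 fold change of the 10 was -0.21, against -0.01 over all tested genes, and it was 0.000365 in the fit with GC and length offsets described below. In 7 of the 10 every UNC1999 library lay below both DMSO libraries, and in 1 (ZFAS1) every UNC1999 library lay above them. Over all tested genes the same held for 30.4% in the lower direction and 24.2% in the higher. Summed over the 10 genes, the level was 757 ± 17.5 CPM (counts scaled to library size with TMM factors; SD, n = 2) in DMSO and 590.5 ± 42.3 (SD, n = 3) in UNC1999.

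**Figure D1:**
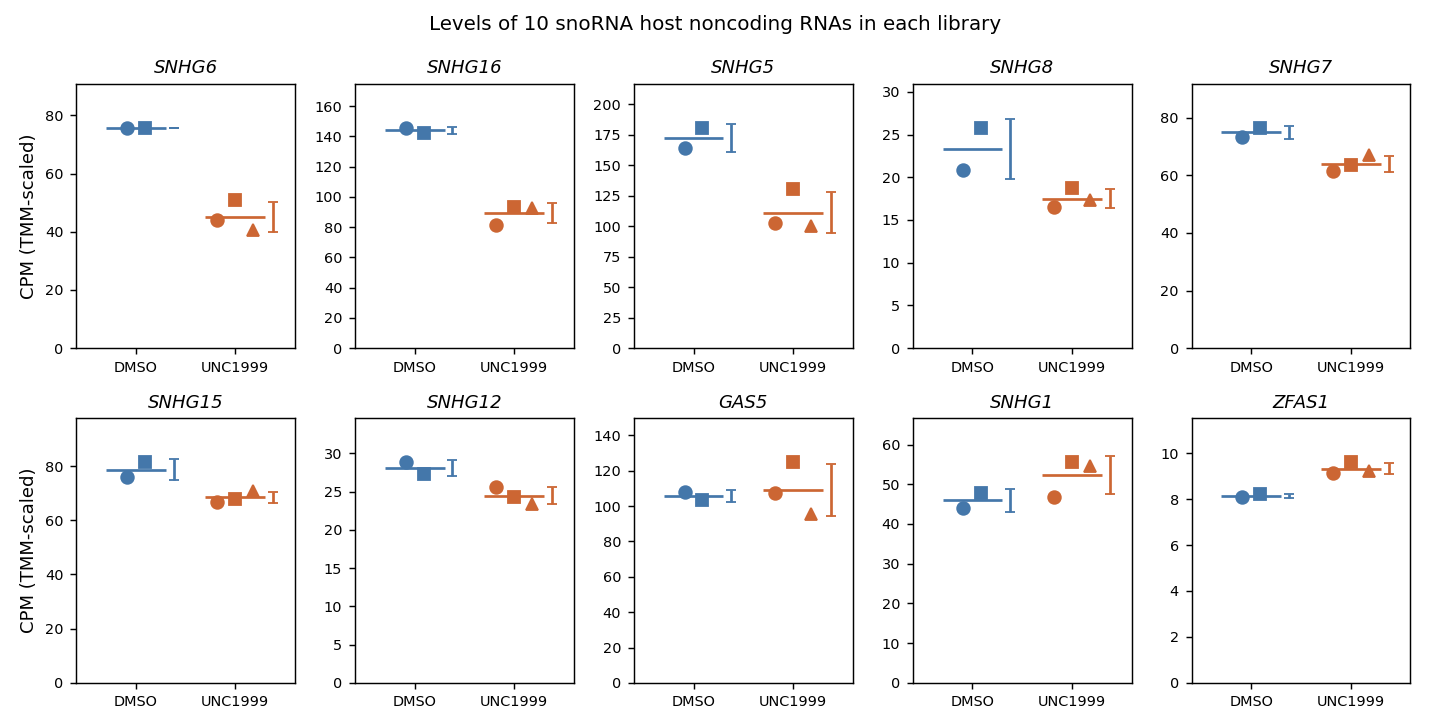
Level of each of the 10 host genes in CPM (y axis, from 0) by treatment group, with a scale for each gene; horizontal lines are group means, the bars beside them are ± SD (n = 2 and 3), and circles, squares and triangles are replicates 1, 2 and 3. For SNHG6, SNHG16, SNHG5, SNHG8, SNHG7, SNHG15 and SNHG12 all UNC1999 points lie below the DMSO points. Those of ZFAS1 lie above, whereas the points of GAS5 and SNHG1 overlap.

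SNHG6, host of SNORD87, was the member with the largest decrease. Its level was 75.7 CPM in both DMSO libraries and 43.9, 50.8 and 40.5 CPM in UNC1999 replicates 1, 2 and 3. The groups did not overlap, and the DMSO libraries were almost equal while UNC1999 replicate 2 was the highest of its group. The mean fell by 40.5%, from 75.7 ± 0.0029 to 45.1 ± 5.24 CPM (SD, n = 2 and 3), a log2 fold change of -0.75 ± 0.12 (SE; 95% interval -0.98 to -0.51; edgeR adjusted p = 5.33e-06).

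SNHG16, host of the SNORD1 family of box C/D snoRNAs, was the second most reduced member. It stood at 146 and 142 CPM in DMSO and at 81.6, 93.5 and 92.5 CPM in UNC1999. All UNC1999 libraries were well below both controls, and replicate 1 was the lowest. The mean fell by 38.1%, from 144 ± 2.35 to 89.2 ± 6.58 CPM, a log2 fold change of -0.69 ± 0.11 (SE; 95% interval -0.91 to -0.47; edgeR adjusted p = 6.1e-06).

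SNHG5, host of the SNORD50 snoRNAs, had the highest level per kilobase of the 10 in DMSO. Its values were 164 and 181 CPM in DMSO and 103, 130.2 and 99.9 CPM in UNC1999. The groups were apart, although UNC1999 replicate 2 lay closer to the controls than the other 2 did. SNHG5 fell by 35.7% in the mean, from 172 ± 11.6 to 111 ± 16.7 CPM, with a log2 fold change of -0.64 ± 0.12 (SE; 95% interval -0.87 to -0.40; edgeR adjusted p = 4.66e-05).

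SNHG8, host of the box H/ACA snoRNA SNORA24, fell least of the 4. It was read at 20.9 and 25.8 CPM in DMSO and at 16.5, 18.7 and 17.3 CPM in UNC1999, from 146 to 217 counts per library. The UNC1999 libraries were close together and just below the lower control. Its log2 fold change was -0.41 ± 0.14 (SE; 95% interval -0.70 to -0.13; edgeR adjusted p = 0.0184). This call was lost without DMSO replicate 2 (adjusted p = 0.337) and without UNC1999 replicate 1 (adjusted p = 0.0813), and in other fits given with the alternatives. Where a DMSO library is left out, the lone control is assumed to vary like the UNC1999 libraries.

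SNHG7, SNHG15 and SNHG12 had every UNC1999 library below both controls but did not pass the test. SNHG7, host of SNORA17 copies, was at 73.3 and 76.6 CPM in DMSO and at 61.4, 63.7 and 67.0 CPM in UNC1999, a log2 fold change of -0.23 ± 0.11 (SE) at an edgeR adjusted p of 0.111. SNHG15, host of SNORA9, was at 75.9 and 81.3 CPM in DMSO and at 66.6, 68.0 and 70.8 CPM in UNC1999, a log2 fold change of -0.20 ± 0.11 (SE) at an edgeR adjusted p of 0.163. SNHG12 carries box H/ACA snoRNAs and SNORD99. It stood at 28.8 and 27.3 CPM in DMSO and at 25.6, 24.3 and 23.4 CPM in UNC1999, a log2 fold change of -0.20 ± 0.13 (SE) at an edgeR adjusted p of 0.235. The 95% intervals of SNHG15 (-0.42 to 0.02) and SNHG12 (-0.46 to 0.06) held 0, and that of SNHG7 reached -0.0015.

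GAS5, SNHG1 and ZFAS1 had fold changes above 0, none of which passed the test. GAS5 hosts a large cluster of box C/D snoRNAs, and its spliced RNA is known for accumulating in growth-arrested cells. It was at 108 and 103 CPM in DMSO and at 107, 125 and 95.6 CPM in UNC1999, so the groups overlapped and UNC1999 libraries held both the highest and the lowest value. Its log2 fold change was 0.05 ± 0.12 (SE; 95% interval -0.18 to 0.28; edgeR adjusted p = 0.779), and it was -0.047 without UNC1999 replicate 2. SNHG1, host of the SNORD22 and SNORD25 to SNORD31 cluster, was at 44.0 and 47.9 CPM in DMSO and at 46.8, 55.5 and 54.5 CPM in UNC1999, a log2 fold change of 0.19 ± 0.12 (SE) at an edgeR adjusted p of 0.234. The lowest UNC1999 library of SNHG1 lay between the controls. ZFAS1, host of SNORD12, SNORD12B and SNORD12C, had the lowest level per kilobase of the 10, and was at 8.07 and 8.20 CPM in DMSO and at 9.15, 9.59 and 9.22 CPM in UNC1999. These groups did not overlap, but with 65 to 88 counts per library the log2 fold change of 0.20 ± 0.18 (SE) had a 95% interval of -0.17 to 0.56 (edgeR adjusted p = 0.421).

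**Figure D2:**
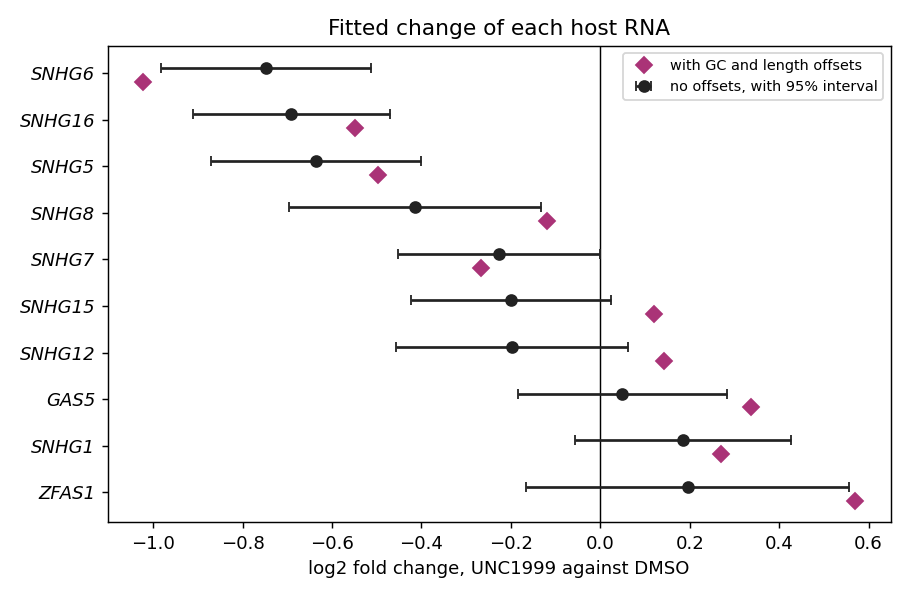
Log2 fold change of each host gene (UNC1999 minus DMSO, x axis) in the fit without offsets, with its 95% interval, and in the fit with GC and length offsets. SNHG6, SNHG16 and SNHG5 lie below 0 in both fits, while GAS5 moves from 0.05 to 0.34 and SNHG12 and SNHG15 cross 0.

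The fold changes of the whole table moved with the GC content of the genes. The median log2 fold change was 0.18 for 2494 tested genes of 40 to 45% GC, -0.29 for 2013 genes of 45 to 50%, -0.32 for 1757 genes of 50 to 55% and 0.14 for 1589 genes above 60%. SNHG6, at 40.6% GC, lay 0.93 below the median of its class, where only 11.3% of genes fell. SNHG5 and SNHG16, both at 45.6% GC, lay 0.34 and 0.40 below theirs, where 42.1% fell. SNHG8 at 47.8% lay 0.12 below the same class median, within its SE, and GAS5 at 47.6% lay 0.34 above it. The place of SNHG12, SNHG15 and ZFAS1 was also above their class, by 0.12, 0.12 and 0.52, that of SNHG1 was 0.0033 above, and that of SNHG7, at 61.1% GC, was 0.37 below. SNHG1, at 44.9% GC, and SNHG5 and SNHG16 lie close to the 45% edge, where the class median goes from 0.18 to -0.29. SNHG6 lies near the 40% edge, where the class median goes from 0.45 to 0.18. SNHG7 lies near the 60% edge, where that median goes from -0.05 to 0.14. The distances of these members therefore depend on where the edges are set.

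A fit with offsets that removed each library's trend with GC content and transcript length, both together, called other members. It covered 11017 tested genes, of which 14.7% rose and 18.4% fell. SNHG6 (log2 fold change -1.02), SNHG16 (-0.55), SNHG5 (-0.50) and SNHG7 (-0.27, edgeR adjusted p = 0.0142) fell, and SNHG8 did not (-0.12, adjusted p = 0.484). In the same fit GAS5 (0.34, edgeR adjusted p = 5.73e-04), ZFAS1 (0.57, adjusted p = 0.00724) and SNHG1 (0.27, adjusted p = 0.0216) rose. SNHG12 and SNHG15 turned from below to above 0 (0.14 and 0.12) without passing. The decrease of SNHG5, SNHG6 and SNHG16 passed the threshold in each of 16 alternative fits, 2 of which leave a lone DMSO library, that of SNHG8 in 9, and the increase of GAS5 and ZFAS1 in the 2 fits with offsets alone. Whether the GC trend is technical or belongs to the treatment was not tested.

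Ratios between members within a library do not depend on how libraries are scaled, but these were not corrected for the trends with GC content and length. Set against GAS5 counts of the same library, SNHG6 stood at 0.702 and 0.734 in DMSO and at 0.409, 0.407 and 0.424 in UNC1999. The SNHG6 ratio barely varied within a group, and UNC1999 replicate 2, in which both genes were highest of their group, no longer stood out. The ratio of SNHG5 to GAS5 was 1.52 and 1.75 in DMSO and 0.958, 1.04 and 1.05 in UNC1999, so SNHG5 reads outnumbered GAS5 reads in DMSO and were about equal to them in UNC1999. For SNHG16 it was 1.35 and 1.38 against 0.761, 0.750 and 0.968. The mean log2 ratios differed by -0.80, -0.69 and -0.73. Of 9 ratios to GAS5, 5 did not overlap between groups: those of SNHG5, SNHG6, SNHG8, SNHG12 and SNHG16, all lower in UNC1999. Over the 13074 other tested genes, the ratio to GAS5 was lower without overlap for 29.4% and higher without overlap for 18.7%. For each of the 5 member ratios without overlap, an exact two-sided permutation test gave p = 0.2 (adjusted over the 9 ratios, 0.36). The test doubles the smaller tail, and 0.2 is the smallest value it can give with 2 against 3 libraries. The ratio of SNHG1 to GAS5 overlapped between groups (difference of log2 ratios 0.14, exact p = 0.6), as did those of SNHG7, SNHG15 and ZFAS1.

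**Figure D3:**
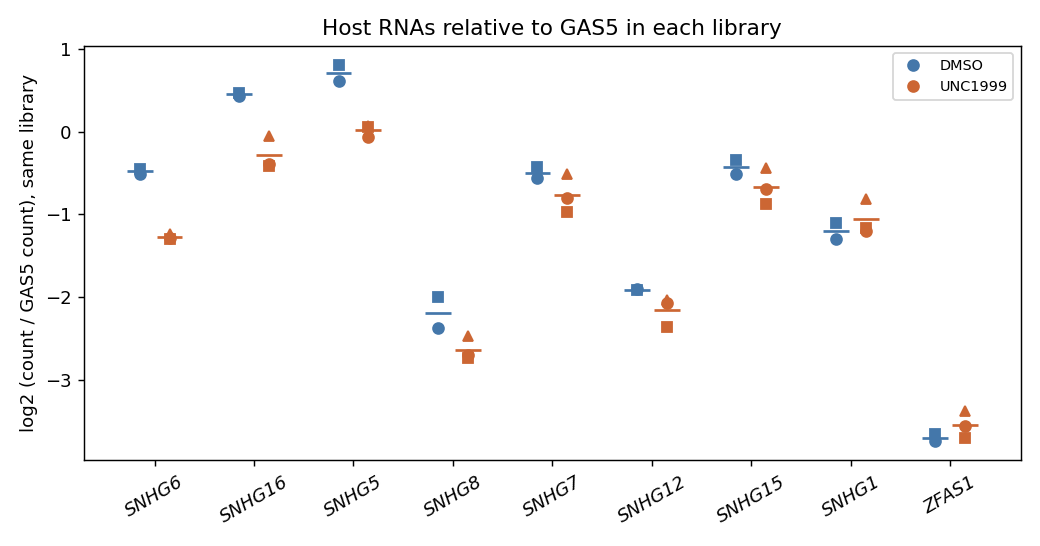
Log2 ratio of each host gene's counts to GAS5 counts in the same library (y axis) by group; horizontal lines are group means, and circles, squares and triangles are replicates 1, 2 and 3. SNHG5, SNHG6, SNHG16, SNHG8 and SNHG12 have no overlap between groups, whereas SNHG1, SNHG7, SNHG15 and ZFAS1 overlap.

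Levels per kilobase of spliced length (CPM per kb, from the median length of each gene's transcripts in the GENCODE basic set) put the members in order. In DMSO, SNHG5 came first at 229, followed by GAS5 at 176 and SNHG6 at 119. SNHG15 (82.5), SNHG16 (74.0), SNHG1 (59.9), SNHG8 (49.6), SNHG12 (37.2) and SNHG7 (34.7) came next, and ZFAS1 (11.1) was last. No 2 neighbours in this order overlapped in DMSO, over only 2 libraries. With UNC1999, GAS5 (182) came first with SNHG5 (147) next, and their ranges overlapped. SNHG15, SNHG6 and SNHG1 followed at 71.8, 70.7 and 68.1 with overlapping ranges, and SNHG16, above SNHG1 in DMSO, stood below it at 45.8. The order of SNHG8, SNHG12, SNHG7 and ZFAS1 was the same in both groups. These levels depend on which transcripts are expressed, which gene counts do not show.

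Reads of several members cannot be told apart from those of genes on the other strand, because the sources used here do not give the strand setting of the counting. In GENCODE 29 (GRCh38), a gene on the opposite strand covers 30.6% of the exon bases of SNHG16 (17:76557766-76565348, + strand), 29.3% of SNHG6, 26.1% of ZFAS1 (20:49278178-49295738, +) and 25.2% of SNHG7 (9:136721366-136728184, -). SNHG6 shares its bases with MCMDC2, a gene of the MCM family, which was at 26.4 and 24.3 CPM in DMSO and 13.3, 17.5 and 12.97 CPM in UNC1999 and also fell (log2 fold change -0.79, edgeR adjusted p = 5.04e-05). SNHG7 shares its bases with FAM69B, whose log2 fold change was -0.16 (edgeR adjusted p = 0.477). Coverage of GAS5 (1:173863900-173868882, -) was 1.16%, that of SNHG12 (1:28578538-28583132, -) was 0.188%, and SNHG1 (11:62851988-62855914, -), SNHG5 (6:85660950-85678748, -), SNHG8 (4:118278709-118279823, +) and SNHG15 (7:44983023-44986961, -) had none. Of the genes that fell, SNHG5 and SNHG8 had no such overlap in GENCODE 29, whereas SNHG6 and SNHG16 had one. The annotation used for the counting is not given, and the part of the overlap was not tested.

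By GENCODE starts, protein-coding genes begin head to head with 3 of the members. Of these neighbours 1 fell, 1 rose and 1 did not pass the test, and none of the 3 members passed it. ZNFX1, an antiviral RNA helicase gene, starts 248 nt from the start of ZFAS1 on the other strand and overlaps 11.1% of the exon bases of ZFAS1, so reads there may be shared. ZNFX1 fell from 146 ± 4.48 to 91.2 ± 0.778 CPM (SD, n = 2 and 3), a log2 fold change of -0.68 ± 0.11 (SE) at an edgeR adjusted p of 6.43e-06, and ZFAS1 did not. ZBTB37, which encodes a zinc finger protein, starts 800 nt from GAS5 and rose from 9.33 ± 2.60 to 15.7 ± 3.17 CPM (log2 fold change 0.75, edgeR adjusted p = 0.00142). SLC3A2, which encodes the CD98 heavy chain of amino acid transporters, starts 188 nt from SNHG1 and was at 280 ± 22.4 and 235 ± 6.40 CPM (log2 fold change -0.25, edgeR adjusted p = 0.0651; -0.15 with offsets). The difference between a member and its neighbour was not tested.

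The snoRNAs themselves were hardly counted, which leaves the small RNAs outside what these libraries show. Of 37 hosted snoRNA symbols, 33 were in the table, 26 of them at 0 in all libraries and 7 with a count. The highest value was 6 counts in a library, for SNORD12C, and all snoRNA counts of a library summed to 8 to 12. None passed the filter, so none was tested. A count of 0 in a library allows up to 3 counts, which covers counting error only. The sources used here do not give how reads in introns or from several copies were assigned, and 16 of the symbols stood on more than 1 row. The products at stake are shown by 1 snoRNA of each class, taken from the GENCODE 29 transcripts, 5′ to 3′. Capitals mark TGATGA and the last CTGA in the box C/D snoRNA SNORD12C of ZFAS1 (20:49278940-49279028, +, 89 nt), and the last ACA, 3 bases from the end, in the box H/ACA snoRNA SNORA24 of SNHG8 (4:118279190-118279320, +, 131 nt).
SNORD12C: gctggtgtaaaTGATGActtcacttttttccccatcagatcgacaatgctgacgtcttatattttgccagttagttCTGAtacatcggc
SNORA24: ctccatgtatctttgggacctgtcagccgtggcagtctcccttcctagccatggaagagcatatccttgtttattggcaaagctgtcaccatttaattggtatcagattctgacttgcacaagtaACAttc
SNORD12C had 1 and 3 counts in DMSO and 2, 6 and 3 in UNC1999, and SNORA24 had 2 counts in DMSO replicate 1 and 0 in the other 4 libraries.

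Of 20 other noncoding snoRNA hosts, 17 were in the table and 12 were tested: 4 fell, none rose and 8 did not pass, with a median log2 fold change of -0.30. Over all tested genes 19.5% fell and 15.7% rose (18.4% and 14.7% with offsets). SNHG22 fell the most, from 10.5 ± 0.320 to 4.73 ± 0.603 CPM (SD, n = 2 and 3), a log2 fold change of -1.14 ± 0.19 (SE) at an edgeR adjusted p of 1.73e-05. LRRC75A-AS1, also named SNHG29, fell from 141 ± 2.99 to 99.8 ± 13.02 CPM (log2 fold change -0.50, edgeR adjusted p = 6.88e-04). SNHG20 and SNHG10 fell by 0.61 each on the log2 scale (edgeR adjusted p = 0.00465 and 0.0181). With GC and length offsets SNHG22 kept its call (-0.76, adjusted p = 0.00154), whereas LRRC75A-AS1, SNHG20 and SNHG10 lost theirs (adjusted p = 0.228, 0.233 and 0.367). In that fit 2 of the 12 fell and 1 rose, with a median of -0.16.

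Protein-coding snoRNA hosts went both ways. Of 45 tested, 17 fell, 4 rose and 24 did not pass, with a median log2 fold change of -0.15. The shares over all tested genes were 19.5% lower and 15.7% higher (18.4% and 14.7% with offsets). Ribosomal protein genes made up 22 of them, of which 11 fell and none rose (median -0.23), and of the other 23 6 fell and 4 rose (median -0.06). TPT1, which encodes the translationally controlled tumour protein, fell from 2132 ± 50.2 to 1352 ± 151 CPM (log2 fold change -0.66, edgeR adjusted p = 1.14e-05). EEF1B2, a translation elongation factor gene, fell from 454 ± 40.2 to 292 ± 37.3 CPM (-0.64, adjusted p = 3.14e-05). RABGGTB, which encodes a subunit of the enzyme that attaches lipid groups to Rab proteins, rose from 31.1 ± 2.24 to 50.7 ± 3.49 CPM (0.71, adjusted p = 2.81e-05), and EIF4A2, an RNA helicase gene of translation initiation, rose from 169 ± 14.8 to 232 ± 18.4 CPM (0.46, adjusted p = 0.00149). With offsets EEF1B2 (-0.28), RABGGTB (0.36) and EIF4A2 (0.18) stood nearer to 0, 10 of 44 fell and 8 rose, and the median was 0.02.

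**Figure D4:**
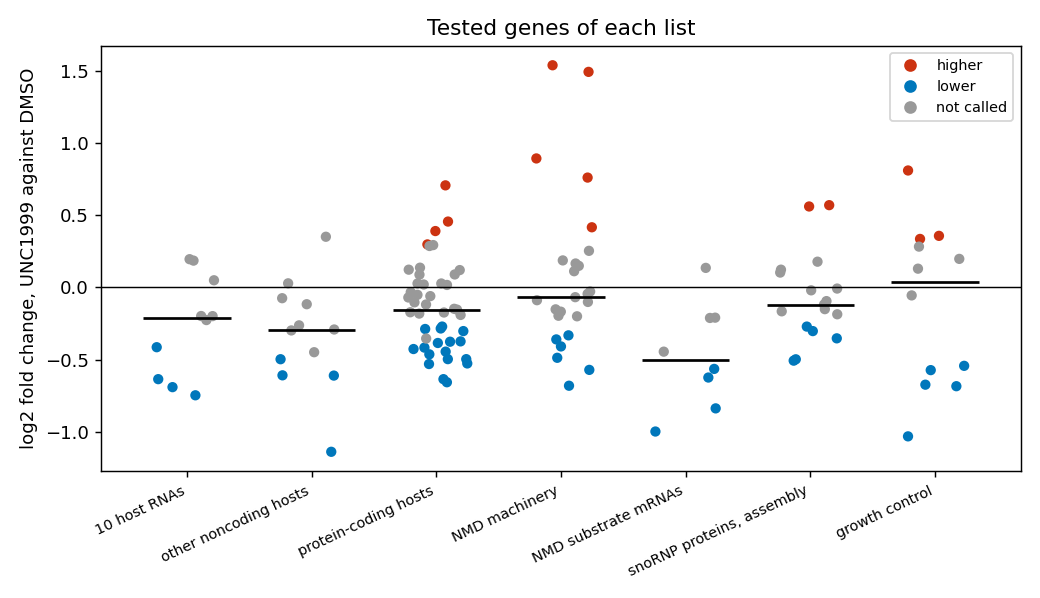
Log2 fold change (UNC1999 minus DMSO, y axis) of every tested gene in each list of related genes (x axis), one point per gene, coloured by its call, with the list's median as a line. The members and the other noncoding hosts have medians of -0.21 and -0.30, and the decay machinery has points on both sides of 0, up to 1.54.

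Of the nonsense-mediated decay machinery, all 25 listed genes were tested: 5 rose, 6 fell and 14 did not pass, with a median log2 fold change of -0.07. Over all tested genes 35.2% changed (15.7% rose and 19.5% fell), and whether the list differs from that share was not tested. SMG1, the kinase that phosphorylates UPF1, rose from 92.3 ± 3.79 to 260.0 ± 10.5 CPM (SD, n = 2 and 3), a log2 fold change of 1.49 ± 0.11 (SE) at an edgeR adjusted p of 2.12e-11. SMG1 shares sequence with pseudogene copies, between which the counting could have split reads. XRN1, the 5′ to 3′ exonuclease, rose from 18.5 ± 2.87 to 54.0 ± 7.01 CPM (log2 fold change 1.54, adjusted p = 5.79e-10). DCP2, the decapping enzyme, and UPF2, a UPF1 partner, rose by 0.89 and 0.76 on the log2 scale (edgeR adjusted p = 5.12e-07 and 3.44e-04). The cofactor SMG8 (-0.57) and the exon junction complex genes EIF4A3 (-0.49) and CASC3 (-0.41) fell. With offsets SMG1 (1.35), XRN1 (1.04), DCP2 (0.30), UPF2 (0.38) and SMG8 (-0.32) stood nearer to 0, and EIF4A3 and CASC3 lost their calls. In that fit 7 of the 25 rose and 8 fell, against 14.7% and 18.4% of all genes it covered.

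Protein-coding genes whose mRNAs are known decay substrates were counted in the same way. Of 8 tested, 4 fell, none rose and 4 did not pass, with a median log2 fold change of -0.51, which was -0.16 with offsets (3 fell). Among all tested genes 19.5% fell (18.4% with offsets). CARS, a cysteinyl-tRNA synthetase gene, fell from 15.4 ± 0.728 to 7.69 ± 0.671 CPM (log2 fold change -0.999, edgeR adjusted p = 1.08e-05). ATF4, a stress-response transcription factor gene, fell from 562 ± 43.7 to 365 ± 21.9 CPM (-0.62, adjusted p = 1.96e-05; -0.41 with offsets).

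The genes whose pattern over the 5 libraries lay nearest to the median pattern of the 10 members were TIMM8B, PPFIA1 and SRSF2. Among 7621 genes their root mean square distances from it were 0.0233, 0.0245 and 0.0250 on the log2 scale. The members' median pattern, centred over the libraries, was 0.10 and 0.17 in DMSO and -0.13, -0.07 and -0.15 in UNC1999, so UNC1999 replicate 2 was the nearest of its group to the controls. The log2 fold changes of the 3 genes were -0.25, -0.27 and -0.27 (edgeR adjusted p = 0.0996, 0.0516 and 0.0404).

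Depth was even, with 8442908 to 8748106 counts per library. UNC1999 replicate 2 stood apart from its group: the chi-square per degree of freedom over genes was 8.20 and 9.64 against replicates 1 and 3, 1.88 between replicates 1 and 3, and 3.36 between the controls. The 3 strongest decreases held without it. The identity of the line was checked with 7 natural killer cell markers, none at 0, with summed levels of 4582 to 4772 CPM in DMSO and 4306 to 4863 CPM in UNC1999. Most of that sum came from NKG7, GZMB and PRF1. T cell markers other than TRAC (3 of 4), 2 of 4 B cell, 1 of 4 myeloid, 2 of 3 erythroid and 3 of 4 epithelial markers were at 0 in every library. TRAC alone made up the T cell sum of 108 to 116 CPM in DMSO and 82.6 to 92.9 CPM in UNC1999. The B cell sum, mostly PAX5, was 23.8 to 25.6 and 17.3 to 24.5 CPM. TRAC and PAX5 were above the natural killer marker CD2 in every library, and TRAC was also above KLRD1. The markers at 0 are therefore only part of the check.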

How the data were processed

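RNA of 5 NK92MI libraries was sequenced. The deposited table holds raw read counts by gene symbol, as whole numbers. Trizol extraction and a NEBNext Ultra RNA kit were used, per the labels' protocols. Named in the submitters' processing notes are hg19, HTSeq 0.13.5, STAR 2.7.9, fastp and edgeR 3.34.0. The sources used here do not give the annotation, strand setting or RNA selection. No chromosome coordinate was converted: positions, lengths, GC content and sequences came from GENCODE 29 (GRCh38), promoters from RefSeq (GRCh38.p14), matched by symbol.

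Groups came from the labels and columns were matched by name. The main test was edgeR 4.0.16 (R 4.3.3): filterByExpr, TMM factors, a quasi-likelihood F-test over 13075 genes and Benjamini-Hochberg adjustment over all of them. CPM values use TMM-scaled library sizes. Standard errors are the log2 fold change divided by the square root of F. The offsets fit used splines (6 degrees of freedom for GC, 4 for length) on the 11017 genes (84.3%) with both values. Alternatives were other scalings and filters, a robust dispersion, a replicate block, offsets, DESeq2 1.42.0, limma-voom (limma 3.58.1) and leaving out each library. The script was tested on simulated data.

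The members and the lists of related genes were chosen with earlier results of these data known. Genes named from a list are up to 2 called genes per direction by smallest p (up to 4 for the decay machinery and other noncoding hosts), with the neighbour genes; 1 gene that this rule names and 1 sequence are not reported here. MCMDC2 and FAM69B were named for their overlap with members. Patterns were compared by root mean square distance among genes of at least 4 log2 CPM on average. No pair of libraries agreed within sampling noise, so none were merged and each was treated as 1 sample. That does not show that they came from separate cultures. Intervals of fold changes come from the fit and include the spread between libraries, while limits for a count of 0 cover counting error only.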

Additional observations from a re-analysis of the deposited data

How the results depend on the processing

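SNHG5, SNHG6 and SNHG16 fell in all 16 alternatives, with log2 fold changes of -0.76 to -0.47, -1.02 to -0.64 and -0.72 to -0.55. SNHG8 fell past the threshold in 9 and lost its call in 7, which also include library totals alone (edgeR adjusted p = 0.0886), upper-quartile factors (0.0532) and DESeq2's own test (0.0865). The number of members that rose was 3 with GC and length offsets and 2 with offsets and the replicate block, where SNHG1 was not called (log2 fold change 0.19, edgeR adjusted p = 0.146), and 0 without any single library. The number that fell was 3 to 4 without a single library. The members' median log2 fold change was -0.11 with library totals alone, -0.14 with upper-quartile factors, -0.17 with the stricter filter, -0.24 with the replicate block, 0.000365 with offsets, -0.035 with offsets and the block, and -0.26 to -0.20 without a single library. The sign reversed for SNHG12 (0.14 with offsets, 0.15 with offsets and the block), SNHG15 (0.12 and 0.083) and GAS5 (-0.047 without UNC1999 replicate 2). The cause was not tested.

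Over all genes, 2057 rose and 2546 fell, against 2949 and 1742 with library totals alone, 2625 and 2021 with upper-quartile factors and 2129 and 2137 with the stricter filter. Without a single library 1158 to 2862 rose and 1367 to 3030 fell. Offsets with the block left 1358 higher genes. Replicate numbers are shared by only 2 libraries per group and no label says that they pair samples. Deviations of same-numbered libraries correlated at 0.0658 and 0.0381, and the replicate block gave 1886 higher and 2136 lower genes, with 4 members lower and none higher. The 65 to 88 counts of ZFAS1 limit what its interval can show.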

Other observations

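Of 17 tested genes for proteins that assemble and act with snoRNAs, 2 rose, 5 fell and 10 did not pass, a share called near the 35.2% of all tested genes, with a median log2 fold change of -0.12 (0.05 with GC and length offsets, where 1 rose and 4 fell). TGS1, the enzyme that hypermethylates the cap of small RNAs, rose from 43.2 ± 0.911 to 63.8 ± 2.91 CPM (SD, n = 2 and 3; log2 fold change 0.56, edgeR adjusted p = 2.57e-04). ZNHIT6, a box C/D assembly factor gene, rose by 0.57 on the log2 scale (edgeR adjusted p = 0.00209) and did not pass with offsets (0.13, adjusted p = 0.472). GAR1, a core protein of box H/ACA particles, fell from 79.8 ± 3.06 to 56.1 ± 7.95 CPM (-0.51, adjusted p = 8.49e-04; -0.27 with offsets). RUVBL1, an assembly ATPase gene, fell from 395 ± 16.5 to 309 ± 0.158 CPM (-0.35, adjusted p = 0.00772) and did not pass with offsets (-0.08, adjusted p = 0.344).

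Of 12 growth control genes, 3 rose and 5 fell, with a median log2 fold change of 0.04. With offsets 2 rose and 5 fell, with a median of 0.06. Over all tested genes 15.7% rose and 19.5% fell (14.7% and 18.4% with offsets). MYC, a transcription factor that drives ribosome production, fell from 179 ± 5.23 to 87.7 ± 7.40 CPM (SD, n = 2 and 3; log2 fold change -1.03, edgeR adjusted p = 7.87e-09). LARP1, which binds mRNAs that begin with a pyrimidine run, fell from 1043 ± 73.2 to 649 ± 10.9 CPM (-0.68, adjusted p = 3.84e-06). RPS6KB1, a kinase gene downstream of mTOR, rose from 18.9 ± 1.48 to 33.2 ± 0.632 CPM (0.81, adjusted p = 1.08e-05; 0.41 with offsets). TSC2, an inhibitor of mTOR signalling, rose from 194 ± 17.02 to 249 ± 45.8 CPM (0.36, adjusted p = 0.0216; 0.18 with offsets), with groups that overlapped.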
